A study of Mus musculus with 4 samples.

Results

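The genes described here are 8 channel genes of the mouse retina: the sodium channel genes Scn1a, Scn2a, Scn3a, Scn8a and Scn9a, and the HCN channel genes Hcn2, Hcn3 and Hcn4. They were taken by symbol from the gene tables deposited with the counts, where 8 of 31053 genes carry these symbols and each symbol occurs once. Nuclear RNA of the retina was sequenced by the 10x droplet method in 4 libraries, where a barcode marks the nucleus and a unique molecular identifier (UMI) marks each RNA molecule that was captured. Both libraries of the younger group came from the left eye of mice aged 2.5 months labelled as wild type, donors 1 and 2. Both libraries of the older group came from the left eye of mice aged 5 months, again donors 1 and 2, for which the labels give no genotype, and no treatment or strain is given for any animal. The series title speaks of human retina and its text of an eye bank, while all 4 samples are labelled Mus musculus. The comparison asked whether these genes differ between neurons that fire action potentials, here ganglion and amacrine cells, and neurons that respond with graded potentials, here rods, cones, bipolar cells and horizontal cells.

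Voltage-gated sodium channels open on depolarisation and carry the rising phase of the action potential. Each is built around 1 large alpha subunit, and the 5 Scn genes here encode alternative alpha subunits. HCN channels open on hyperpolarisation and carry a mixed cation current that depolarises the cell, and cyclic nucleotides shift their gating to differing degrees. In the retina, ganglion cells send spikes along the optic nerve and many amacrine cells spike locally, whereas photoreceptors, horizontal cells and most bipolar cells signal by graded changes in voltage. HCN currents are known in photoreceptors and bipolar cells.

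On GRCm38, the assembly of mm10, Scn3a (chr2:65457118-65567627, minus strand), Scn2a (chr2:65620771-65767447, plus strand), Scn1a (chr2:66270778-66440840, minus strand) and Scn9a (chr2:66480080-66634962, minus strand) lie within 1.18 Mb of chromosome 2. Scn8a is at chr15:100869858-101045938 on the plus strand. Hcn2 is at chr10:79716634-79736108 and Hcn4 at chr9:58823412-58863175, both on the plus strand, and Hcn3 is at chr3:89146074-89160196 on the minus strand. Genes of the opposite strand overlap Scn1a (Gm13630), Scn3a (Gm13595), Scn9a (Gm13629 and Gm23046) and Hcn3 (Pklr). A pseudogene of the same strand, Gm13627, also overlaps Scn9a. Strand use in counting is not given in the sources used here. RefSeq's table on GRCm38.p6 held a start site for 6 of the 8 genes. The 250 bases before a start are printed for the 3 genes of the chromosome 2 stretch that it held, and for Scn8a, the sodium channel gene whose class means differ least among the 6 neuron classes. The Scn8a window lies inside the gene span given above, since RefSeq's start is downstream of the start of that span. Capitals mark each CG dinucleotide, and all 4 run 5′ to 3′ on the strand of the gene.
Scn1a, chr2:66440838-66441087, minus strand: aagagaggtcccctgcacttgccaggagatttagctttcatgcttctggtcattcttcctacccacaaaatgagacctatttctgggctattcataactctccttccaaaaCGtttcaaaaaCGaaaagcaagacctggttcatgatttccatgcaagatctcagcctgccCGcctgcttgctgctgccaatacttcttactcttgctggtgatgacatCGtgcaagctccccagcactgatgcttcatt
Scn2a, chr2:65620519-65620768, plus strand: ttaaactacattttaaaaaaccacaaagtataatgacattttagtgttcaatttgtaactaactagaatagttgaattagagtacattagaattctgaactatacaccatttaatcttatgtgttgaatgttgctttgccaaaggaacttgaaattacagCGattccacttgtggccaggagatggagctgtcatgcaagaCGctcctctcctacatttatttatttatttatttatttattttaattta
Scn9a, chr2:66634963-66635212, minus strand: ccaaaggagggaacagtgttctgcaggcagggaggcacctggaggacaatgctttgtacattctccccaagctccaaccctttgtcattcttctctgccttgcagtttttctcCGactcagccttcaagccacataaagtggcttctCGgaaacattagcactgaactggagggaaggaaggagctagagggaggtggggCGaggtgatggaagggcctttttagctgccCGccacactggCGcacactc
Scn8a, chr15:100870395-100870644, plus strand: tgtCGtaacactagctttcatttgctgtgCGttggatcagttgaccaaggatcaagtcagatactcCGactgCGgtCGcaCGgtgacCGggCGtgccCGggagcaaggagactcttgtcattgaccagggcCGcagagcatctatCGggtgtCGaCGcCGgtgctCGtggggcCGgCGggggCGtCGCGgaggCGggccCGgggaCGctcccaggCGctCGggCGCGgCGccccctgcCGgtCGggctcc
The Scn8a window held 30 CG dinucleotides, more than 94.1% of the 32851 mouse promoter windows of the same length. Scn1a held 4, Scn2a held 2 and Scn9a held 5, against a median of 6 over all windows. The other start listed for Scn2a and the other for Scn8a each held 9. Hcn2 held 16 and Hcn4 held 25. None of the 4 printed windows held TATAAA or GGGCGG on either strand, which 12.4% and 32.7% of all windows hold. These counts describe letters and say nothing of which factors act there.

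The libraries held 7404 to 9963 barcodes and 19608067 to 36320257 UMIs, 32326 barcodes in all. Nuclei were grouped by the genes they share and named from marker genes, with the 8 genes left out of the grouping. Of 30670 nuclei kept, 22046 were in the 6 neuron classes: 1733 ganglion, 4982 amacrine, 2825 bipolar, 318 horizontal, 3188 cone and 9000 rod nuclei. Horizontal cells were few, with 29 and 38 nuclei in the 2.5-month and 117 and 134 in the 5-month libraries. The marker lists that named the clusters were also summed, so each class is high in its own list by construction. The ganglion list stood at 2459 to 2593 in ganglion sums against 109 to 141 in amacrine and 200 to 287 in rod sums. The amacrine list stood at 1744 to 2063 in amacrine against 352 to 413 in ganglion sums. Horizontal sums held 1208 to 1465 of the amacrine list, and rod markers, at 18769 to 19628 in rods, stood at 573 to 1302 in ganglion and 5757 to 7814 in cone sums. These values are UMIs of the gene or list per 1000000 UMIs of a class in a library, written CPM from here on. The doublet caller marked 2.26% to 8.92% of barcodes in 3 libraries and 0.0271% in 2.5-month donor 1, where it did not work, so doublets remain there. Libraries shared 0.0809% to 0.337% of barcodes.

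Scn1a, Scn2a, Scn3a and Scn9a were high in ganglion and amacrine cells, and low in rods and cones. All 4 also had their highest mean in ganglion cells. Scn8a had means of 173 to 305 CPM in the 6 neuron classes. Hcn2 followed the sodium channels at lower counts, while Hcn3 and Hcn4 had their highest means in bipolar cells. Below, 4 values in a row are CPM in 2.5-month donors 1 and 2, then 5-month donors 1 and 2, and fold changes are on the log2 scale with their standard error (SE). Gene lengths differ, so levels are compared between classes and not between genes.

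Scn1a, an alpha subunit known from the axon initial segment of ganglion cells and inhibitory neurons, stood at 564, 648, 554 and 489 CPM in ganglion cells (mean 564 ± 64.9 SD, n = 4). In amacrine cells it stood at 292, 341, 329 and 270 CPM, in bipolar cells at 41.4, 66.7, 58.7 and 61.4 CPM, and in rods at 12.1, 17.2, 22.0 and 16.6 CPM. The spiking sums did not overlap any graded sum: the lowest was 270 CPM in amacrine cells and the highest graded value 69.0 CPM, in horizontal cells of 2.5-month donor 2. The other 3 horizontal sums held 9.66 to 14.5 CPM, and cones held 3.28 to 13.7 CPM. Averaged over classes, Scn1a was higher in spiking than in graded neurons by 4.36 log2 (SE 0.098, edgeR's quasi-likelihood test, Benjamini-Hochberg adjusted p = 8.32e-36). In the order ganglion, amacrine, bipolar, horizontal, rod, cone, ganglion and amacrine cells differed, as did amacrine and bipolar cells, and rods and cones did not (adjusted p = 0.0794). The place of horizontal cells was less firm. They were higher than rods by 1.04 log2 (adjusted p = 0.0229), which without 2.5-month donor 2 was 0.15 (adjusted p = 0.828). They were lower than bipolar cells by 0.99 log2 (adjusted p = 0.0114). That call was lost in several settings, among them without 5-month donor 1 (adjusted p = 0.172) or 5-month donor 2 (adjusted p = 0.111). With the called doublets kept, bipolar minus horizontal cells gave 0.25 log2 (adjusted p = 0.494, edgeR's quasi-likelihood test). Over all class pairs, 50.6% of the tests of all genes passed.

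Scn2a, an alpha subunit of unmyelinated axons and the initial segment, differed from Scn1a in the inner graded neurons. It stood at 438, 469, 443 and 388 CPM in ganglion cells, at 239, 249, 280 and 234 CPM in amacrine cells and at 203, 212, 191 and 155 CPM in horizontal cells. Bipolar cells held 131, 156, 183 and 157 CPM, while rods (12.2 ± 3.81 CPM) and cones (7.55 ± 1.83 CPM) had means no higher than that of Müller glia (13.5 ± 4.42 CPM), the support cells of the retina. Cones were lower than Müller glia by -1.04 log2 (edgeR's quasi-likelihood test, adjusted p = 0.00123), and rods did not pass (-0.51, adjusted p = 0.0552). The horizontal values lay below the amacrine values in every library, yet after scaling the 2 classes did not differ beyond their spread (0.08 log2, SE 0.121, adjusted p = 0.682, edgeR's quasi-likelihood test). Scn2a was higher in spiking neurons by 3.12 log2 (SE 0.074, adjusted p = 6.33e-35), and no graded sum reached a spiking one, since the highest was 212 CPM and the lowest spiking value 234 CPM.

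Scn3a, an alpha subunit best known from the developing nervous system, was detected in adult ganglion cells at 238, 228, 233 and 209 CPM. Amacrine cells held 133, 133, 153 and 127 CPM and bipolar cells 46.9, 44.0, 58.7 and 48.3 CPM. Horizontal cells ranged from 9.65 to 54.7 CPM on 74 UMIs in all, overlapping the bipolar values (adjusted p = 0.454), and rods and cones stayed at or under 11.4 CPM. The groups did not overlap, and the difference between spiking and graded neurons was 3.73 log2 (SE 0.100, edgeR's quasi-likelihood test, adjusted p = 4.86e-33).

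Scn9a, the alpha subunit known for pain signalling in sensory neurons, had the largest fold of the 8. Ganglion cells held 124, 128, 111 and 188 CPM and amacrine cells 52.7, 66.4, 62.2 and 128 CPM, so that 5-month donor 2 was the highest library in both classes. No graded class exceeded 4.10 CPM in any library: there were 48 UMIs in the 4 graded classes together and 4588 in the spiking classes. Horizontal cells had no Scn9a UMI in 3 libraries, which allows up to 14.5, 7.13 and 3.67 CPM at 3 counts, and 1 UMI in the fourth. The fitted difference of 6.46 log2 (SE 0.204, edgeR's quasi-likelihood test, adjusted p = 3.05e-30) rests on those few graded counts and ran from 5.05 to 7.16 over the alternative settings. Scn9a was also found in glia: Müller glia held 77.3, 102, 66.4 and 55.1 CPM, which did not differ from amacrine cells beyond their spread (-0.02 log2, SE 0.153, adjusted p = 0.916).

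Scn8a, the main alpha subunit of nodes and mature initial segments, separated the classes least. It stood at 274, 350, 334 and 263 CPM in ganglion cells and at 208, 227, 201 and 171 CPM in amacrine cells. Bipolar cells held 226, 272, 230 and 209 CPM, cones 160, 233, 219 and 159 CPM and rods 170, 197, 198 and 176 CPM. Ganglion sums lay above every rod, cone and horizontal sum and overlapped bipolar sums (up to 272 CPM), amacrine sums overlapped those of every graded class, and bipolar values were above amacrine values in all 4 libraries. The difference of 0.41 log2 (SE 0.072, edgeR's quasi-likelihood test, adjusted p = 2.33e-06) came with 0.78 for ganglion cells against the graded classes (adjusted p = 1.32e-10) and 0.05 for amacrine cells (SE 0.092, adjusted p = 0.703). Bipolar and amacrine cells, amacrine cells and cones, and cones and rods did not differ beyond their spread (adjusted p = 0.114, 0.223 and 0.407). Rods had the higher mean CPM than horizontal cells (185 against 173), but after scaling the fit put them lower by -0.36 log2 (adjusted p = 0.0298, where 21.6% of genes were lower), with a median of all genes of 0.18. That call was lost without 2.5-month donor 1 (adjusted p = 0.0797), without 2.5-month donor 2 (adjusted p = 0.0739) and without 5-month donor 1 (adjusted p = 0.131). Müller glia held 44.6 ± 6.60 CPM, and melanocytes, pigment cells that came along with the tissue, 292 ± 47.3 CPM.

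**Figure D1:**
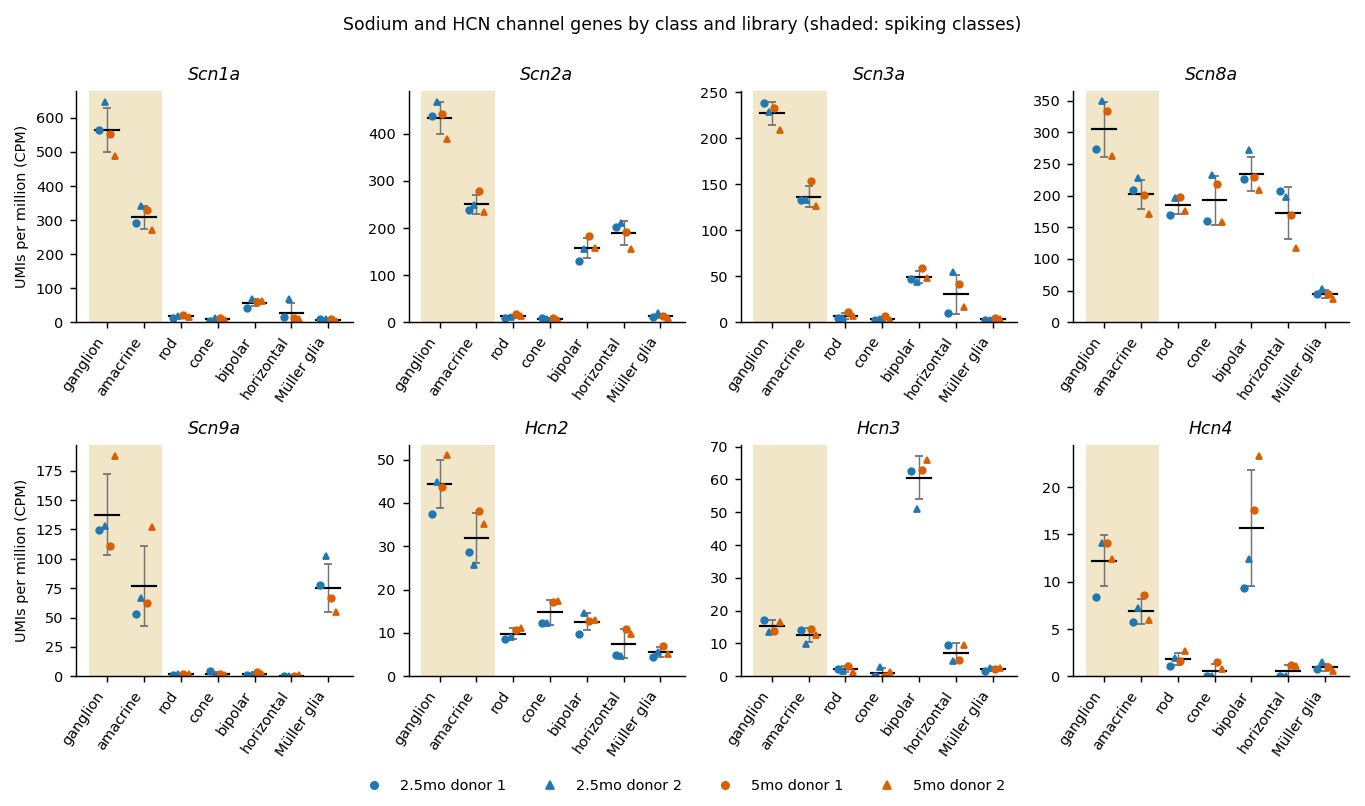
Level of each of the 8 genes (CPM, linear axis from 0, scaled per gene) in the 6 neuron classes and Müller glia. Points are the 4 libraries, coloured by age and shaped by donor, long lines are means and error bars 1 SD. Scn1a, Scn2a, Scn3a and Scn9a sit highest in ganglion cells, and Hcn3 is highest in bipolar cells at 60.5 CPM. Scn8a varies least across neurons, with means from 173 CPM in horizontal to 305 CPM in ganglion cells.

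Hcn2, a channel strongly tuned by cyclic AMP, stood at 37.6, 44.8, 43.7 and 51.1 CPM in ganglion cells and at 28.7, 25.8, 38.2 and 35.2 CPM in amacrine cells. Cones held 12.3, 12.2, 17.1 and 17.5 CPM, and bipolar cells, rods and horizontal cells had means of 12.6, 9.87 and 7.56 CPM. The lowest spiking value, 25.8 CPM, was above the highest graded value, 17.5 CPM. Hcn2 was higher in spiking neurons by 1.77 log2 (SE 0.101, edgeR's quasi-likelihood test, adjusted p = 2.13e-20), and the neighbours that did not differ beyond their spread were cones and bipolar cells (adjusted p = 0.875) and rods and horizontal cells (adjusted p = 0.477). Bipolar cells exceeded rods (0.58 log2, adjusted p = 0.0100), but not without 2.5-month donor 2 (0.43, adjusted p = 0.166).

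Hcn3, a family member that responds little to cyclic AMP, was highest in a graded class. Bipolar cells held 62.6, 50.9, 62.8 and 65.9 CPM, above every other class: ganglion cells held 17.2, 13.4, 13.8 and 16.6 CPM and amacrine cells 14.1, 9.81, 14.6 and 12.5 CPM. Bipolar cells exceeded ganglion cells, the next in order, by 1.86 log2 (SE 0.189, edgeR's quasi-likelihood test, adjusted p = 9.21e-12, where 25.5% of genes were higher). Rods had 24 UMIs in all and cones 9, with none in 2 libraries, which allows up to 2.46 and 1.47 CPM there. The mean over classes weighs these low classes as much as bipolar cells, and gave a positive spiking-minus-graded value of 1.31 log2 (SE 0.190, adjusted p = 6.46e-08). With the UMIs of the classes pooled before the fit, the same comparison turned to -0.35 log2 (adjusted p = 0.0296), so the direction for Hcn3 depends on how the graded classes are weighted. Ganglion and amacrine cells, and amacrine and horizontal cells, did not differ beyond their spread (adjusted p = 0.106 and 0.482).

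Hcn4, the slowest of the family and the main pacemaker channel of the heart, rested on the fewest UMIs of the 8, 394 in spiking and 165 in graded neurons. Bipolar cells held 9.37, 12.4, 17.5 and 23.3 CPM, ganglion cells 8.39, 14.0, 14.1 and 12.4 CPM and amacrine cells 5.75, 7.19, 8.58 and 5.94 CPM. Bipolar and ganglion values overlapped (0.17 log2, SE 0.234, edgeR's quasi-likelihood test, adjusted p = 0.552), while cones had 5 UMIs and horizontal cells 2. The spiking-minus-graded value was 2.23 log2 (SE 0.253, adjusted p = 2.38e-10), and 0.87 with pooled UMIs, 4.19 in the 2.5-month and 1.82 in the 5-month libraries alone.

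All 8 genes passed the filter on low counts and all 8 were higher in spiking neurons at an adjusted p under 0.05, where 35.3% of the 14955 genes tested were higher. Their median difference was 2.67 log2, beside 0.03 over all genes. In CPM, before the scaling of the fit, the sums themselves did not overlap for 5 of the 8, Scn1a, Scn2a, Scn3a, Scn9a and Hcn2, against 5.07% of genes tested in that direction. For Scn2a, amacrine and horizontal cells did not differ beyond their spread after scaling (0.08 log2, SE 0.121, adjusted p = 0.682, edgeR's quasi-likelihood test). Against the mean of the 4 graded classes, weighted equally, ganglion cells were higher for 8 of 8 (34.2% of all genes) and amacrine cells for 7 of 8 (32.2%), Scn8a being the one not called. This does not hold for each graded class: bipolar cells were higher than ganglion cells in Hcn3, and higher than amacrine cells in Hcn3 and Hcn4. The 8 directions were the same in the 2.5-month and in the 5-month libraries alone, with Scn1a at 4.26 and 4.41, Scn3a at 3.84 and 3.56 and Scn8a at 0.39 and 0.42 log2. Over the 21 pairs of the 6 neuron classes and Müller glia, 128 of 168 tests of these genes passed, against 50.6% of all tests. The means of Scn1a, Scn2a and Scn3a in rods were 2.81% to 3.06% of the ganglion means, beside ganglion marker sums of 200 to 287 CPM in rods and 2459 to 2593 CPM in ganglion cells, and the part of RNA from other cells in these low levels was not tested.

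**Figure D2:**
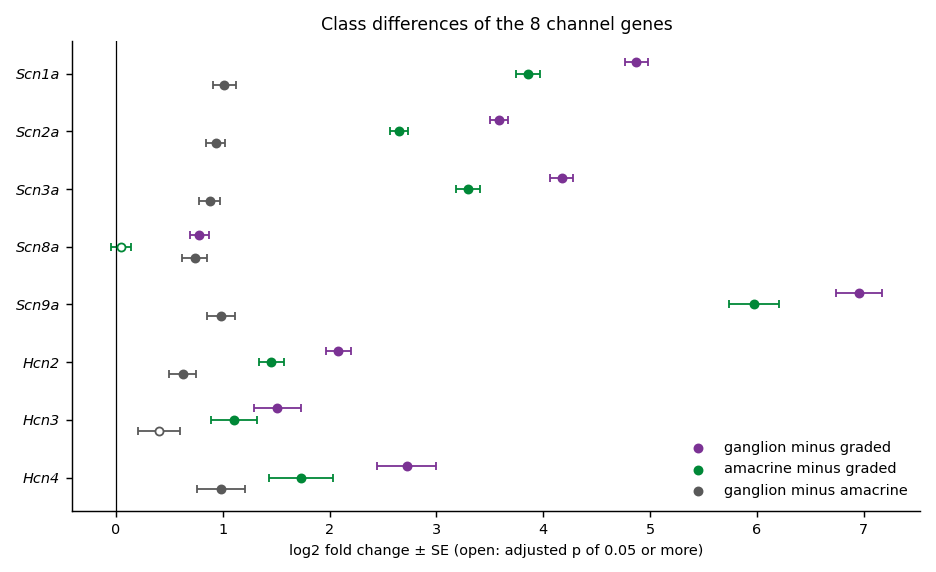
Log2 differences of the 8 genes for ganglion minus graded, amacrine minus graded and ganglion minus amacrine cells, with standard errors as bars, from the edgeR fit on 4 libraries; open points did not pass. Ganglion minus graded runs from 0.78 for Scn8a to 6.95 for Scn9a, amacrine minus graded from 0.05 for Scn8a to 5.97 for Scn9a, and ganglion minus amacrine from 0.40 for Hcn3 to 1.01 for Scn1a.

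Within the spiking neurons, 7 of the 8 genes were higher in ganglion than in amacrine cells, where 19.8% of all genes were higher. The sodium channel genes differed by similar sizes: Scn1a by 1.01 (SE 0.109), Scn9a by 0.98 (SE 0.132), Scn2a by 0.93 (SE 0.088), Scn3a by 0.88 (SE 0.100) and Scn8a by 0.74 log2 (SE 0.114), with adjusted p from 2.16e-12 to 6.42e-07 in edgeR's quasi-likelihood test. For Scn1a, Scn2a, Scn3a and Scn8a every ganglion value was above every amacrine value, as for 11.4% of genes. Scn9a overlapped only through 5-month donor 2, whose amacrine value of 128 CPM exceeded the ganglion values of 124 and 111 CPM. Hcn4 was higher by 0.99 (SE 0.224, adjusted p = 0.000389) and Hcn2 by 0.62 log2 (SE 0.123, adjusted p = 5.16e-05), and Hcn3 did not pass (0.40, SE 0.198, adjusted p = 0.106). With all sums thinned to 57391 UMIs, Scn8a differed by 0.30 log2 and no longer passed (adjusted p = 0.662). The nuclei differed in depth, with medians of 8686 UMIs in ganglion and 4568 in amacrine nuclei.

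Bipolar cells carry signals from photoreceptors to the inner retina, and their sodium channel genes split by type. Bipolar nuclei that stayed unnamed (134 and 165 in the 2.5-month, 99 and 125 in the 5-month libraries) are in none of the 3 subclasses below. Their 3 subclusters of at least 20 nuclei held Hcn3 at 131 to 150 CPM. Scn1a and Scn3a were lower in rod bipolar cells than in the cone bipolar classes as a whole, whereas Scn8a had its highest mean in rod bipolar cells. Cone bipolar types differed widely: of 8 subclusters named ON cone bipolar, Scn1a was under 20 CPM in 4 and Scn3a in 3, as in both rod bipolar subclusters, while none of the 3 OFF subclusters was under that level for either gene. Scn1a stood at 86.1, 128, 96.7 and 99.2 CPM in OFF cone bipolar cells (451 nuclei), at 50.1, 68.0, 59.8 and 71.5 CPM in ON cone bipolar cells (1103 nuclei) and at 5.09, 7.02, 10.1 and 12.1 CPM in rod bipolar cells (748 nuclei). The 3 ranges did not overlap. Scn3a stood at 119 ± 19.4, 41.1 ± 12.9 and 5.46 ± 3.16 CPM in the same order, also without overlap. The share of all genes without overlap was not computed for these subclasses. The means of Scn8a ran the other way, at 197 ± 23.7, 229 ± 21.1 and 286 ± 43.8 CPM. Its ranges overlapped between neighbours, at 165 to 218, 211 to 256 and 251 to 350 CPM, and OFF and ON cone bipolar cells were not called different. An ON cone bipolar subcluster reached 313 CPM, beside 301 and 303 CPM in the rod bipolar subclusters.

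Of the 8 genes, 5 passed the filter in this fit, and Scn9a, Hcn2 and Hcn4 did not. OFF minus ON cone bipolar cells was positive for Scn3a (1.65 log2, SE 0.174, edgeR's quasi-likelihood test, adjusted p = 3.24e-09), Hcn3 (1.09, SE 0.214, adjusted p = 0.000204) and Scn1a (0.82, SE 0.159, adjusted p = 0.000177), where 8.1% of genes were higher. Against rod bipolar cells, OFF cone bipolar cells were higher in Scn3a by 4.53 (SE 0.281, adjusted p = 4.68e-15), Scn1a by 3.71 (SE 0.253, adjusted p = 5.55e-14) and Scn2a by 0.81 log2 (adjusted p = 3.11e-05), with 15.3% of genes higher. Scn8a was lower there by -0.57 log2 (SE 0.111, adjusted p = 9.94e-05), with 13.3% of genes lower. Hcn3 at 0.58 log2 (adjusted p = 0.0409) lost its call in 5 of 9 alternative settings, among them without 2.5-month donor 2 (0.42, adjusted p = 0.327) and without 5-month donor 1 (0.41, adjusted p = 0.239). ON cone bipolar cells exceeded rod bipolar cells in Scn1a (2.90 log2), Scn3a (2.89) and Scn2a (0.60), with 16.5% of genes higher, and were lower in Scn8a (-0.41, 12.8% of genes lower). With the called doublets kept, ON cone minus rod bipolar cells gave 0.65 log2 for Scn1a (adjusted p = 0.0599) and -0.20 for Scn8a (adjusted p = 0.228), both no longer called, and 1.30 for Scn3a (adjusted p = 0.00186). OFF cone minus rod bipolar cells then gave 1.5 for Scn1a, 2.99 for Scn3a and -0.35 log2 for Scn8a, all still called.

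Amacrine cells are inhibitory interneurons, and among them the starburst cells, which release acetylcholine and GABA, stood apart. Amacrine nuclei that stayed unnamed (163 and 295 in the 2.5-month, 375 and 436 in the 5-month libraries) are in none of the 3 subclasses below. They include the subcluster with the highest Scn1a level, 1018 CPM. Starburst nuclei (262) held Scn1a at 4.01, 14.0, 16.9 and 14.6 CPM, against 303, 319, 332 and 281 CPM in other GABAergic (2431 nuclei) and 189, 205, 182 and 181 CPM in glycinergic amacrine cells (1020 nuclei). Scn3a had 3 UMIs in starburst cells, 2.05 ± 1.66 CPM, beside 173 ± 20.4 CPM in GABAergic cells. Scn8a, in contrast, stood at 188 ± 30.7, 197 ± 19.5 and 220 ± 27.6 CPM in starburst, GABAergic and glycinergic cells, with overlapping ranges. Scn2a was at 56.7 ± 11.0 CPM in starburst cells, below the 249 ± 26.1 and 252 ± 28.9 CPM of the other classes.

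Of the 8 genes 7 passed the filter in this fit, Hcn4 being the exception. GABAergic cells exceeded starburst cells in 6, where 17.3% of genes were higher: Scn3a by 6.37 (SE 0.317, edgeR's quasi-likelihood test, adjusted p = 2.60e-15), Scn9a by 4.50 (SE 0.333, adjusted p = 9.13e-12), Scn1a by 4.45 (SE 0.187, adjusted p = 6.38e-17) and Scn2a by 2.03 log2 (SE 0.142, adjusted p = 3.27e-12), followed by Hcn3 (1.78) and Hcn2 (0.87). Hcn2 lost its call in 5 settings, among them without 2.5-month donor 1 (adjusted p = 0.0866), without 5-month donor 1 (adjusted p = 0.276) and without 5-month donor 2 (adjusted p = 0.112), and Hcn3 without 5-month donor 1 (1.30, adjusted p = 0.0791). Scn8a differed by -0.04 log2 (SE 0.101, adjusted p = 0.830). Glycinergic cells exceeded starburst cells in 5 genes, Scn3a (5.30), Scn1a (3.68), Scn2a (1.97), Scn9a (1.86) and Hcn2 (1.17), with 14.8% of genes higher. Hcn2 there did not pass without 5-month donor 2 (1.00, adjusted p = 0.0651). GABAergic cells exceeded glycinergic cells in Scn9a (2.65 log2, SE 0.166, adjusted p = 4.08e-13), Scn3a (1.07, SE 0.100, adjusted p = 1.39e-09) and Scn1a (0.78, SE 0.085, adjusted p = 2.51e-08), with 15.6% of genes higher, and Scn2a did not differ beyond its spread (0.05, SE 0.086, adjusted p = 0.720).

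**Figure D3:**
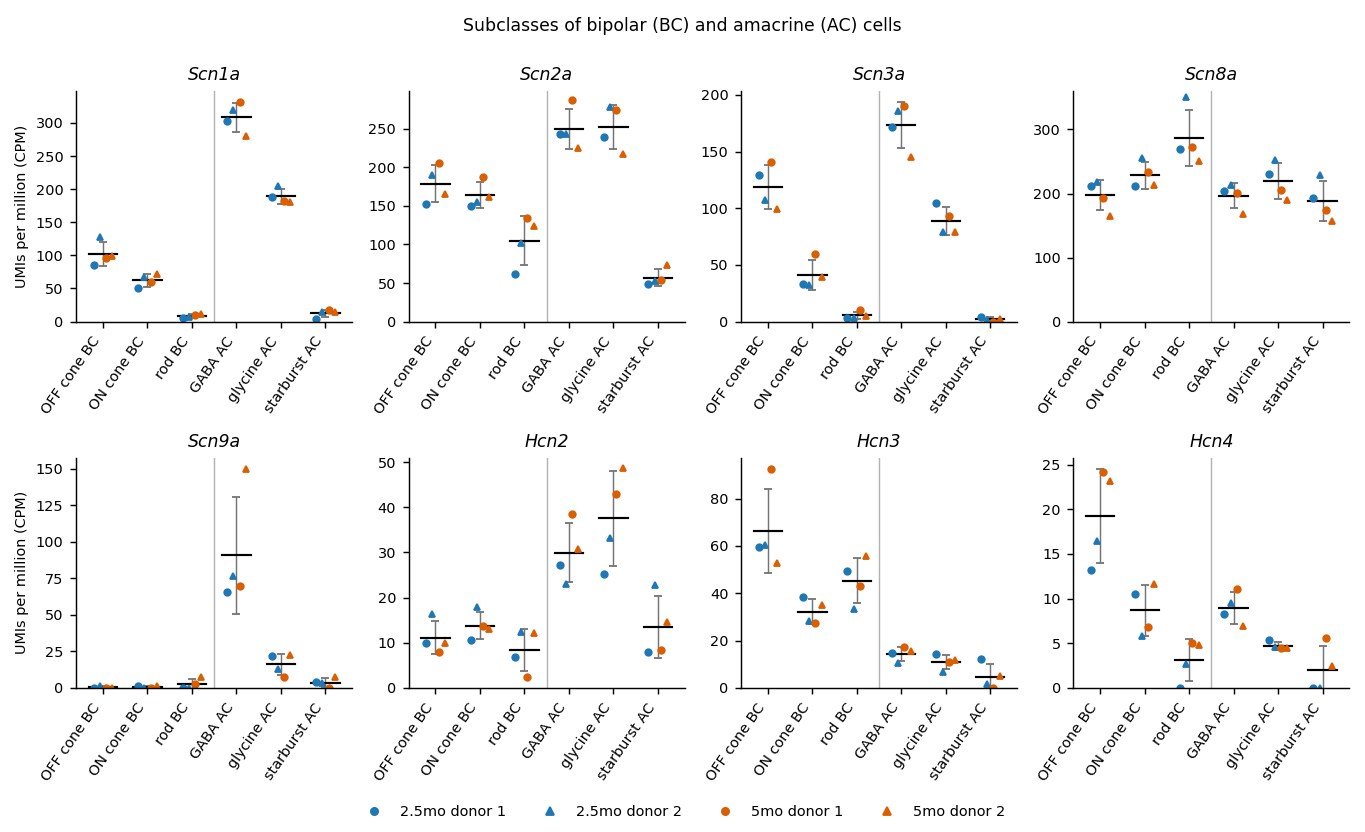
Levels of the 8 genes (CPM, linear axis from 0, scaled per gene) in the bipolar and amacrine subclasses, with 1 point per library, the mean as a long line and 1 SD as error bars. Starburst amacrine and rod bipolar cells sit lowest for Scn1a, at means of 12.4 and 8.58 CPM, while Scn8a has means between 188 and 286 CPM in all 6 subclasses.

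At finer grain, bipolar, amacrine and ganglion nuclei were divided into 16, 43 and 32 subclusters of at least 20 nuclei, and the values below describe these with no test. Scn8a was at 121 CPM or more in all 91 of them. Scn1a was at 206 CPM or more in all 32 ganglion subclusters, the lowest being led by Trpc7, Gna14 and Opn4, the gene of the melanopsin photopigment. Across amacrine subclusters Scn1a spanned 13.2 to 1018 CPM with a median of 256 CPM, and across bipolar subclusters 3.44 to 297 CPM with a median of 38.9 CPM. Ganglion subclusters ran from 206 to 750 CPM. As a ratio of highest to lowest, Scn1a thus varied more among amacrine and bipolar subclusters than among ganglion subclusters. In CPM the bipolar range was narrower than the ganglion range.

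The highest amacrine level of Scn1a was in a subcluster of 421 nuclei led by Gm45459, Pcsk6 and Drd2, which matched no fixed name. It held 1195, 1102, 1018 and 825 CPM, in every library more than the ganglion class, but Scn3a there stood at only 24.2 CPM over all its nuclei. Scn3a was highest in a GABAergic subcluster of 92 nuclei led by Gas7, Smoc1 and Npnt, with 412, 546, 503 and 509 CPM, where Scn1a stood at 454 CPM. A GABAergic subcluster of 131 nuclei led by Rnf220 and Tshr had no Scn3a UMI among 776019 UMIs, which allows up to 3.87 CPM at 3 counts, with Scn8a at 220 CPM.

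Among bipolar subclusters, Hcn4 was concentrated in 1 of 138 nuclei led by Erbb4, Kcnh7 and Angpt1, which also stayed unnamed. It held 45.7, 157, 166 and 211 CPM of Hcn4 on 60 UMIs in all, and no other bipolar subcluster reached 100 CPM. Hcn3 split the OFF cone bipolar cells: a subcluster of 221 nuclei led by Gsg1l2, Ebf1 and Gm32647 held 3.68 CPM, and those led by Hs3st2 and Nell2 and by Nav3 and Brinp1 held 119 and 161 CPM. The OFF mean of Hcn3 in the comparison above therefore joins types that differ widely. Scn2a was lowest, at 23.3 CPM, in an ON cone bipolar subcluster of 206 nuclei led by Grin3a and Cck. Outside the named classes, 3 unnamed clusters led by Dnah11 and Lgr5 (419 nuclei), by Cntn6 and L3mbtl4 (205 nuclei) and by Htr2c and Col25a1 (158 nuclei) held Scn1a at 190, 310 and 215 CPM and entered no comparison.

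**Figure D4:**
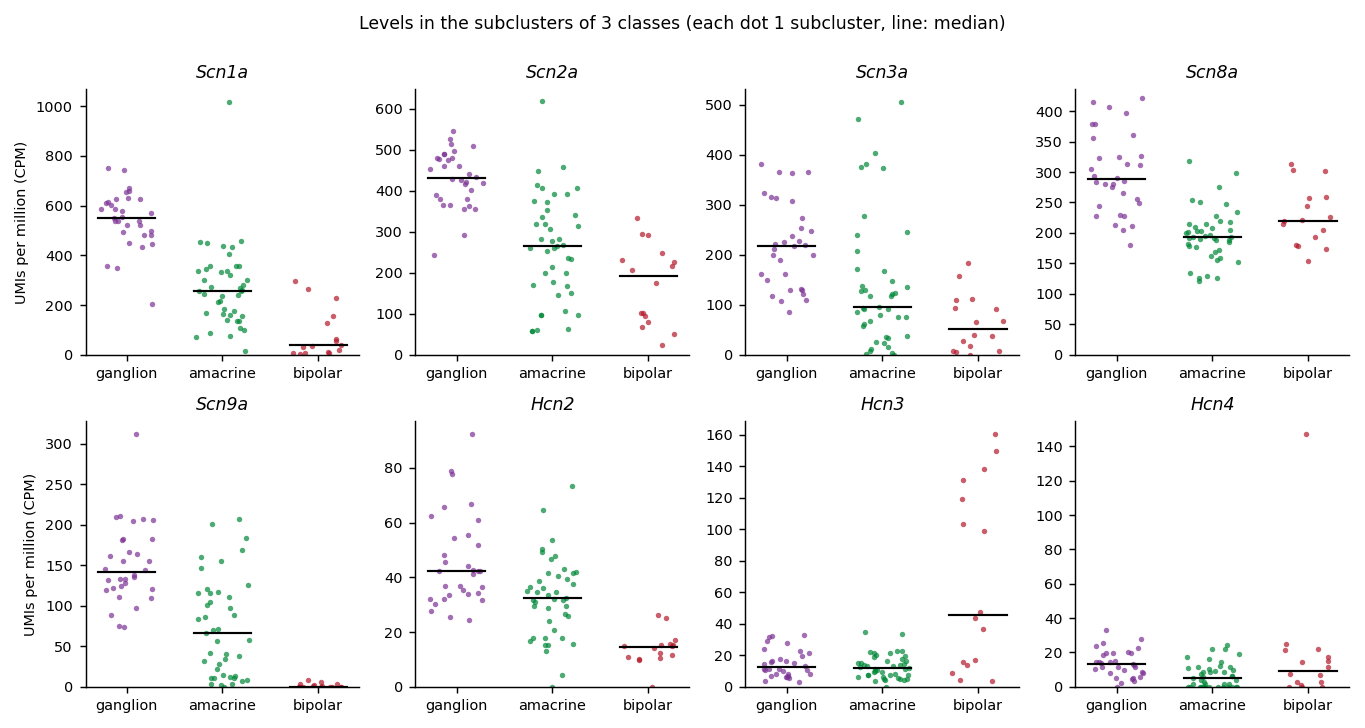
Level of each gene (CPM, linear axis from 0, scaled per gene) in every bipolar, amacrine and ganglion subcluster of at least 20 nuclei, 1 point per subcluster over the nuclei of the 4 libraries, with the median as a line. Scn8a points lie at 121 CPM or more in all 3 classes, whereas Scn1a spans 13.2 to 1018 CPM among amacrine subclusters.

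Counted per nucleus, most ganglion nuclei held at least 1 UMI of the 8 genes. With each nucleus thinned to 1000 UMIs, this share was 82.8% ± 4.46 (SD, n = 4) in ganglion and 59.9% ± 2.68 in amacrine nuclei. It was 42.7% ± 2.38 in bipolar, 28.7% ± 2.67 in horizontal, 20.5% ± 1.75 in rod and 19.6% ± 3.05 in cone nuclei. Müller glia, which are not neurons, gave 14.0% ± 1.81, of which Scn9a alone accounted for 7.30% of nuclei. Unthinned shares were 99.9% in ganglion, 93.5% in amacrine, 24.5% in rod and 33.0% in Müller nuclei, at median depths of 8686, 4568, 1231 and 2818 UMIs. For Scn1a the thinned share was 41.5% ± 5.06 in ganglion and 24.7% ± 2.57 in amacrine nuclei, beside 1.68% in rods, 0.802% in cones and 0.611% in Müller glia. The part of free RNA in these low shares was not tested. Thinning left out 2661 of 9000 rods and 1 ganglion nucleus.

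Other genes that work with these channels were followed in a list of 29, of which 28 were in the files and 24 passed the filter. In spiking minus graded neurons 22 of the 24 were higher and 1 lower, with a median of 2.49 log2, where 35.3% of all genes were higher and 28.3% lower. Fgf14, a homologous factor that binds sodium channels, was higher by 6.36 (SE 0.195), Kcnq3, a potassium channel of the initial segment, by 5.77 (SE 0.151) and Kcna1, a potassium channel of axons, by 4.64 log2 (SE 0.212), with adjusted p of at most 4.87e-24 in edgeR's quasi-likelihood test. All 4 homologous factor genes, 3 of 3 beta subunit genes tested and 9 of 10 initial segment and node genes were higher, and Nfasc, an anchor of the initial segment, was not called (0.10, adjusted p = 0.262). The gene lower was Unc80, a subunit of the sodium leak channel (-0.23 log2, adjusted p = 0.0291). Of the neuron classes its mean was lowest in ganglion cells, at 270 CPM. Amacrine cells, at 528 CPM, lay within the range of the graded means, from 349 CPM in rods to 568 CPM in bipolar cells. Ganglion minus amacrine cells gave 15 higher, 4 lower and 5 not called, where 19.8% of all genes were higher and 18.5% lower.

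The genes whose levels were most like each of the 8 were found from Pearson correlations of log2(CPM + 1) over 28 sums (6 neuron classes and Müller glia in 4 libraries), which share libraries and class composition and carry no p. Nearest to Scn1a were Sgcz (r = 0.97), Pcnx2 and Ano4 (both 0.96), and nearest to Scn2a were Myt1l, Frrs1l and Glt1d1 (each 0.98). Nearest to Scn3a were Pcsk2 (0.98), 2900011O08Rik (0.98) and Atp2b3 (0.97), to Scn8a Stxbp5l and Ccser1 (both 0.97) and Dnajc6 (0.94), and to Scn9a Ppfibp1, Rmst (both 0.96) and Hunk (0.95). For the HCN genes the nearest were Cplx2, Gpc5 and Vwa5b2 for Hcn2 (each 0.93), Abr (0.94), Fam135b (0.93) and Grm5 (0.92) for Hcn3, and Kcnt1, Gabrb2 and Cntn5 for Hcn4 (each 0.95).

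Between the ages the 8 genes differed little against the spread of 2 libraries a group. Of 40 tests in the 7 classes, those of the genes that passed the filter in a class, none passed in edgeR's quasi-likelihood test, 4 had an unadjusted p under 0.05, and DESeq2 also called none, with 1 such unadjusted p. Of all genes 0.0487% passed in rods, 0.0518% in cones, 0.0684% in bipolar cells, 0.099% in horizontal cells, 0.0522% in ganglion cells, 0.0396% in amacrine cells and 0.0877% in Müller glia. The log2 differences, 5 months minus 2.5 months, ran from -0.52 to 0.95, with 24 positive and 16 negative. The 4 lowest unadjusted p belonged to Hcn4 in bipolar cells (0.85 log2, SE 0.327), Scn9a in amacrine cells (0.63, SE 0.284) and in Müller glia (-0.52, SE 0.219), and Scn3a in rods (0.95, SE 0.411).

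For Hcn4 in bipolar cells both 5-month values (17.5 and 23.3 CPM) were above both 2.5-month values (9.37 and 12.4 CPM). For Scn9a in amacrine cells the ages overlapped, and the difference lay in 1 library, 5-month donor 2. Scn1a in horizontal cells was called only without 2.5-month donor 1 (-2.40 log2, adjusted p = 0.000402 in edgeR's quasi-likelihood test) or without the filter on low counts (-1.81, adjusted p = 0.0457), and rests on 69.0 CPM in 2.5-month donor 2 beside 9.66 to 14.5 CPM elsewhere. The difference between spiking and graded neurons did not change with age for any of the 8 at an adjusted p under 0.05 (1 had an unadjusted p under 0.05, and 0.0401% of all genes passed). Cell Ranger 7.1.0 made the counts of the 2.5-month pair and 4.0.0 those of the 5-month pair, so an effect of age and one of the software cannot be told apart.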

How the data were processed

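Raw UMI counts, whole numbers for each gene in each barcode, were deposited for 4 libraries, and no barcode had under 500 UMIs. The build was mm10 and Cell Ranger was used, per the submitters' processing notes, in version 7.1.0 for the 2.5-month and 4.0.0 for the 5-month libraries, per the file headers. Intron counting and strand use are not given in the sources used here.

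Barcodes under 300 genes or over 5% mitochondrial UMIs were removed (27 in all), and doublets called by scrublet (expected rate 0.06) were removed. Counts scaled to 10000 were clustered on 2000 variable genes without the 8 genes and the list genes, 30 components, 15 neighbours and Leiden resolution 1 (Python 3.11.15, scanpy 1.11.5, leidenalg 0.10.2). A cluster was named where 3 or more of a class's markers had a log2 fold change above 1 and none of its leading genes went against the name, with a floor of 500 CPM for leading genes decided after the genes were seen, as were the clusters set aside as unnamed (1940 nuclei).

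Raw counts were summed per class and library, for 11 classes with at least 20 nuclei in every library (at least 10 for subclasses). They were tested with edgeR 4.0.16 in R 4.3.3 (quasi-likelihood test, TMM scaling, filterByExpr, class plus library as a block) over all 14955 genes, 2-sided, with Benjamini-Hochberg adjustment, and genes under 0.05 were called. TMM scaling is meant to correct the class sums for differing composition, and how far it did so here was not tested. Classes were weighted equally in spiking minus graded. Age was fitted within each class, with 2 residual degrees of freedom. Each library is 1 labelled donor, so in the age fits without a block the spread is that between donors. In the fits with the library block, differences shared by all classes of a library are taken up by the block. The spread there is that of class differences between libraries, estimated over all classes in the fit. The fit was tested on simulated data. Intervals and limits of 3 counts cover counting error only. Alternatives were RLE scaling, DESeq2 1.42.0, no filter, no block, each library left out, doublets kept, thinned sums, pooled UMIs, other graded sets, Leiden 0.5 and each age alone.

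Gene positions are those of GRCm38, and promoter sequences those of RefSeq on GRCm38.p6. The named genes are the 8 members, the 3 list genes with the largest change and those lower, and the 3 genes most like each member with a mean of at least 10 CPM. 1 gene of the list is not reported here. The members and lists were chosen with earlier results of these data known. Single subclusters were named after their values were seen.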

Additional observations from a re-analysis of the deposited data

Results flagged for a closer look

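Of 112 sets of 4 libraries (8 genes in 7 classes and 7 subclasses), 5 held a library far from the other 3, and chance alone flags about 1 in 20. In horizontal cells Scn1a stood at 69.0 CPM in 2.5-month donor 2, on 29 UMIs, beside 9.66 to 14.5 CPM in the others. Scn9a in horizontal cells was at 1.07 CPM in 5-month donor 2, which is 1 UMI, and at 0 in the rest. Scn1a in Müller glia was low in 5-month donor 2, at 2.32 CPM, with the others at 8.53 to 9.62 CPM. Scn9a in OFF cone bipolar cells was at 1.37 CPM in 2.5-month donor 2, again 1 UMI, and 0 elsewhere. Scn9a in GABAergic amacrine cells was high in 5-month donor 2, at 150.0 CPM, with 65.9 to 76.8 CPM in the others; this is the only one of the 5 that rests on a large count, and the same library was the highest for Scn9a in ganglion cells too.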

How the results depend on the processing

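Values of the 8 genes among spiking, ganglion, amacrine and graded cells, and called subclass differences, were repeated under other settings. They kept direction and call in 634 repeats and lost the call in 17. The direction reversed in 1, Hcn3 in spiking minus graded neurons at -0.35 log2 with the UMIs of classes pooled, where 1 of the 8 genes was therefore lower. Values of other class pairs were not among these repeats. Several of those lost a call, and Scn1a in rods minus Müller glia turned from 0.94 to -0.29 log2 with doublets kept. Repeated counts of called genes stayed similar in 222 cases and moved in 31. Thinning all sums to 57391 UMIs left 3172 genes testable, against 14955 unthinned, and of the 8 only Scn1a, Scn2a and Scn8a. This lowers the counts by construction. In spiking minus graded, 3 of the 8 were then higher, beside 904 of the 3172 genes (5283 of 14955 unthinned). Calls of all genes in either direction were 1425 there (9510 unthinned). In ganglion minus graded 3 of the 8 were higher (1251 genes called, 9231 unthinned). In amacrine minus graded 2 were higher (1144, 8520 unthinned) and in ganglion minus amacrine cells 2 (418, 5734 unthinned). Over all class pairs, with the same 3 and 3172 genes tested in each pair, thinning left 37 calls of the 8 genes and 24301 of all genes (128 and 158975 unthinned). Calls of all genes were 3998 in bipolar (6297 unthinned) and 4670 in amacrine subclasses (9190 unthinned). Without a filter on low counts the median of all genes in spiking minus graded was 0.21 instead of 0.03 log2.

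Without the library block, ganglion minus amacrine cells gave 3523 calls. Equal donor numbers do not pair the ages, since the animals differ and the deviations of equal numbers correlated at -0.04 to 0.06 across genes. With the replicate block the age fits called 318 genes over the 7 classes, against 51 without it, and none of the 8. The same count was 849 without the filter (1 of them Scn1a), 129 with doublets kept, 128 in DESeq2 and 110 to 470 with a library left out (0 to 1 of the 8 genes). The class by age fit called 6 genes, 14 without the filter, 27 with doublets kept and 0 to 6 with a library left out, none of them among the 8. The share of ganglion nuclei with a UMI of the 8 genes was 96.9% at 2000 UMIs and 99.9% unthinned. The cause was not tested for any of these shifts beyond the thinning. Depth limits horizontal cells most, at 207277 to 931640 UMIs a library, and with them Hcn3, Hcn4 and Scn9a in graded neurons.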
